A study of Sus scrofa with 2 samples.

Results

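Y RNA fragments were followed in small RNA libraries of pig oocytes, as the reads of 18 to 44 nt that matched Y1, Y3, Y4 or Y5 RNA on the sense strand with at most 1 mismatch. The match found 320 distinct sequences among the 1166705 of both libraries together, 46 of Y1, 60 of Y3, 214 of Y4 and 0 of Y5. The control library came from metaphase II oocytes, the stage ready for fertilisation, after 42 h of maturation in vitro. The knockdown library came from oocytes treated with siRNA against Dicer, the ribonuclease that makes miRNAs and siRNAs, at the germinal vesicle stage and then matured for the same 42 h. Whether the control oocytes received a control siRNA, and how many oocytes went into each library, was not given in the sources used here, and the level of Dicer itself is not measured by small RNA reads. Each group had a single library (n = 1), which leaves no spread to test against, and each comparison is between these libraries and not between the conditions.

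Y RNAs are small noncoding RNAs made by RNA polymerase III. Their 5′ and 3′ arms pair into a stem that closes an internal loop, the protein Ro60 binds a conserved part of that stem, and La binds the run of U at the 3′ end. They are known for roles in RNA quality control and the start of DNA replication, and for fragments of their arms in small RNA libraries of many tissues.

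No reference Y RNA was at hand, so the arms were assembled from the deposited reads around pairs of conserved motifs. They are shown first because every fragment below is counted on them, with bases numbered from the 5′ end of each arm. Capitals mark the motif shared by all 5′ arms (TGGTCC) or all 3′ arms (TTGACT), and the DNA letters are those of the reads.
Y1 5′ arm: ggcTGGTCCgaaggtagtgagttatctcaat
Y3 5′ arm: ggtTGGTCCgagtgcagtggtgtttacaa
Y4 5′ arm: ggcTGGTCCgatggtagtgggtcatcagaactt
Y1 3′ arm: ccttctcactactgcacTTGACTagtctt
Y3 3′ arm: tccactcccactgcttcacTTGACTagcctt
Y4 3′ arm: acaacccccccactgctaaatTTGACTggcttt

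The 5′ arms are close relatives. Over their first 20 bases Y1 and Y4 shared 18 and differed by A12T and A20G, with the Y1 base first. Y1 and Y3 shared 15, and Y3 and Y4 shared 16. Among the 3′ arms as assembled, that of Y4 stood apart by a run of 7 C at bases 5 to 11. A predicted fold of the assembled arms paired the 5′ with the 3′ arm through 17 base pairs in Y1, 20 in Y3 and 20 in Y4. In Y4 these pairs joined base 1 of the 5′ arm to base 31 of the 3′ arm and base 21 to base 9.

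Y RNA fragments were a small part of both libraries, and a larger part of the knockdown library. The control library held 1517 of them among 11836160 reads, or 0.0128% (exact 95% interval 0.0122 to 0.0135), and the knockdown library 6485 among 11982925, or 0.0541% (0.0528 to 0.0555). Scaled to the size of the library, as RPM, this was 128 and 541, a ratio of knockdown to control of 4.22 (3.99 to 4.47). All intervals are at 95% and hold counting error alone, since the reads carry no molecular identifiers and PCR copies are counted as reads. No sequence matched the antisense strand (0 reads), and the arms written backwards, used as a decoy, matched 0 reads. In such bulk libraries more fragments per oocyte and less of the other small RNAs cannot be told apart.

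Of the 320 sequences 94 occurred in both libraries, 49 in the control library only and 177 in the knockdown library only. Among all 1166705 distinct sequences, 720572 occurred in the control and 689709 in the knockdown library, so most of them were not shared either. The 94 shared Y RNA sequences held 93.9% of the control and 91.2% of the knockdown Y RNA reads. A single read stood behind 144 of the Y RNA sequences, 2 to 19 reads behind 136 and 20 or more behind 40. Read numbers were concentrated, since the 5 most abundant sequences took 51.9% of the control and 64.6% of the knockdown Y RNA reads.

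The largest contributor in both libraries was Y4. Its fragments had 1202 control and 5626 knockdown reads, 102 and 469.5 RPM, with a ratio of 4.62 (4.34 to 4.92). They made up 79.2% of the control Y RNA reads (77.1 to 81.2) and 86.8% of the knockdown ones (85.9 to 87.6). Y1 was the rarest detected, with 69 and 378 reads, 5.83 and 31.5 RPM, and a ratio of 5.41 (4.18 to 7.10). Y3 had the lowest ratio, with 246 and 481 reads, 20.8 and 40.1 RPM, at 1.93 (1.65 to 2.26). The ratio of Y4 exceeded that of Y3 by a factor of 2.39 (2.02 to 2.83) and that of Y1 exceeded that of Y3 by 2.80 (2.06 to 3.84). Y4 and Y1 could not be separated, with a quotient of their ratios of 0.854 (0.646 to 1.12). No read of Y5 was found with the motifs used, where 3 reads, the limit that a count of 0 allows, equal 0.253 RPM (control) and 0.250 RPM (knockdown).

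Fragments were then sorted by the end of the Y RNA they held. Fragments with the 5′ end, starting within 2 nt of base 1, had 345 control and 488 knockdown reads and a ratio of 1.40 (1.22 to 1.61). Base 1 is G in these arms. By length group, reads outside the Y RNAs that began with G had ratios from 1.05 (18 to 21 nt) to 1.32 (22 to 23 nt). Fragments that ended in the closing T run of the 3′ arm had 651 and 1862 reads and a ratio of 2.83 (2.58 to 3.09). The rest, called internal, had 521 and 4135 reads, a ratio of 7.84 (7.16 to 8.60). Nearly all internal reads were 3′ arm fragments that stopped before the T run, with 492 and 4065 reads against 29 and 70 from the 5′ arms. By arm, the 5′ arms had 374 and 558 reads (ratio 1.47, 1.29 to 1.68) and the 3′ arms 1143 and 5927 (5.12, 4.81 to 5.46).

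The division between the arms was steepest in Y4. Its 5′ arm as a whole had 275 control and 274 knockdown reads and a ratio of 0.984 (0.830 to 1.17). Within it the fragments with the 5′ end had 246 and 208 reads (0.835, 0.691 to 1.01) and the internal ones 29 and 66 (2.25, 1.43 to 3.61). Its 3′ arm went from 927 to 5352 reads (5.70, 5.32 to 6.12) and from 77.1% to 95.1% of Y4 reads. The 3′ arm ratio was thus 5.79 times the 5′ arm ratio (4.81 to 6.97). In Y3 the same quotient was 1.66 (1.14 to 2.41). In Y1 it was 0.710 (0.407 to 1.23), an interval that includes 1.

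The 3′ arm fragments of Y4 came in 2 main ends. They are shown because these sequences carried most of the difference between the libraries. Capitals mark the TTGACT motif, and what follows it is 1, 3 or 5 bases long.
Y4 3′ arm, 22 nt: cccccactgctaaatTTGACTg
Y4 3′ arm, 23 nt: ccccccactgctaaatTTGACTg
Y4 3′ arm, 21 nt: ccccactgctaaatTTGACTg
Y4 3′ arm, 20 nt: cccactgctaaatTTGACTg
Y4 3′ arm, 22 nt, end 3 bases after the motif: cccactgctaaatTTGACTggc
Y4 3′ arm, 19 nt, end 3 bases after the motif: actgctaaatTTGACTggc
Y4 3′ arm, 26 nt, in the T run: cccccactgctaaatTTGACTggctt
Y4 3′ arm, 27 nt, in the T run: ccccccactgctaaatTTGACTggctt

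The 22-nt form ending 1 base after the motif was the most abundant Y RNA sequence, with 205 control and 1400 knockdown reads, 17.3 and 117 RPM. Its ratio was 6.75 (5.82 to 7.85), and the 23-nt form that begins 1 C earlier had 194 and 1322 reads and nearly the same ratio, 6.73 (5.79 to 7.87). The 27-nt form that runs into the T run was the most abundant one of the control library, at 262 reads, with 740 on the knockdown side (ratio 2.79, 2.42 to 3.22). The 26-nt form went from 114 to 351 reads (3.04, 2.46 to 3.79). Taken singly, the 22-nt and the 23-nt form each outnumbered the 27-nt form in the knockdown library, and neither did in the control.

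The other 4 printed forms of the Y4 3′ arm had few control reads. The 21-nt form had 13 control and 376 knockdown reads (ratio 28.6, 16.5 to 54.2), and the 20-nt form 4 and 208 (51.4, 19.8 to 190). The 22-nt form that ends 3 bases after the motif had 0 and 54 reads, and the 19-nt form with the same end 0 and 51. Set against a floor of 3 control reads, the first was 17.8-fold and the second 16.8-fold higher. The lower bounds of their exact intervals were 13.97 and 13.17. These 4 were chosen or ranked by their ratio or abundance, so their values are a description. A 20-nt sequence that was not printed, bases 11 to 30, was the most abundant to end 3 bases after the motif. It had 3 and 156 reads and the same ratio as the printed 20-nt form (51.4, 17.25 to 251.8).

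The ends of the Y4 3′ arm lay in the T run less often in the knockdown library and more often at base 28, which the predicted fold pairs with base 4 of the 5′ arm. In the control library equal numbers of reads, 426, ended 1 base and 5 bases after the motif, each 46.0% of the arm's reads. In the knockdown library 3450 reads, 64.5%, ended 1 base after it and 1302, 24.3%, ended 5 bases after it. The ratios were 8.00 (7.23 to 8.87) and 3.02 (2.70 to 3.38). Reads ending 3 bases after the motif went from 25 to 362, a ratio of 14.3 (9.53 to 22.4). Fragments that stopped anywhere before the T run had 463 and 3929 reads and a ratio 2.77 times (2.39 to 3.20) that of fragments ending in it. The same quotient was 2.01 (0.932 to 4.51) in Y1 and 1.28 (0.683 to 2.50) in Y3, both intervals including 1.

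Grouped by length, the ratio of the Y4 3′ arm was highest at 18 to 21 nt. Reads of 18 to 21 nt went from 37 to 1004 (ratio 26.8, 19.3 to 38.3), or from 3.99% to 18.8% of the arm. Within that range the ratio did not follow length, with 13.0 at 18 nt (6.05 to 33.2), 47.4 at 19 nt (12.8 to 397), 35.4 at 20 nt (19.6 to 71.5) and 24.5 at 21 nt (15.1 to 42.5). Those of 22 to 23 nt went from 413 to 2900 (6.94, 6.25 to 7.71) and those of 24 to 25 nt from 45 to 193 (4.24, 3.05 to 5.999). Reads of 26 to 27 nt went from 420 to 1218 (2.86, 2.56 to 3.21), and their share of the arm fell from 45.3% to 22.8%. The ratio at 18 to 21 nt was 3.86 times that at 22 to 23 nt (2.73 to 5.61), which was 2.42 times that at 26 to 27 nt (2.08 to 2.83).

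Starts of the Y4 3′ arm lay mostly inside the C run. Reads that kept 6 or 5 of its 7 C, starting at bases 6 and 7, had 864 control and 4101 knockdown reads and a ratio of 4.69 (4.36 to 5.05). These starts lie just outside the first base of the arm that the fold pairs, base 9. Reads that started further in had 50 and 1190 reads and a ratio of 23.5 (17.7 to 31.9), among them 9 and 351 that started at base 9 itself. Reads that started further out were few, 13 and 61, with a ratio of 4.64 (2.52 to 9.20).

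Other RNAs that began with CCC also had more reads in the knockdown library. Outside the Y RNAs such reads numbered 33500 in the control and 79351 in the knockdown library (ratio 2.34, 2.31 to 2.37), against 5.35 (4.98 to 5.74) for the 908 and 4913 Y RNA reads that began with CCC. At 18 to 21 nt the other CCC reads had a ratio of 4.99 (4.70 to 5.29), at 22 to 23 nt 2.83 (2.74 to 2.91), at 24 to 25 nt 1.79 (1.74 to 1.84), at 26 to 27 nt 2.57 (2.51 to 2.62) and at 28 to 44 nt 1.55 (1.496 to 1.603). All reads outside the Y RNAs, whatever their first bases and with the CCC reads included, had a ratio of 1.001 at 18 to 21 nt and 0.947 at 22 to 23 nt. Other reads of 22 to 23 nt that began with a single C or more and had a GC content of 45 to 60% had a ratio of 1.06 (1.05 to 1.07). At 18 to 21 nt, reads that began with C and had a GC content of 40 to 60% had a ratio of 1.36 (1.34 to 1.38). The interval of the Y4 3′ arm lay above that of the other CCC reads at 18 to 21, 22 to 23 and 24 to 25 nt and overlapped it at 26 to 27 nt and from 28 nt up, where the Y4 3′ arm had 3.05 (1.55 to 6.42). The Y4 3′ arm was grouped here with all its starts, and part of its reads at 18 to 21 nt did not begin with CCC. The part of a general difference in C-rich ends in the Y4 result was not tested.

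The 5′ arm fragments were fewer and differed by Y RNA. The leading sequences of each are shown so that their ends can be compared, with the TGGTCC motif in capitals.
Y4 5′ arm, 31 nt: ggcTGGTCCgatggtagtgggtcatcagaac
Y4 5′ arm, 23 nt: ggcTGGTCCgatggtagtgggtc
Y3 5′ arm, 24 nt: ggtTGGTCCgagtgcagtggtgtt
Y1 5′ arm, 31 nt: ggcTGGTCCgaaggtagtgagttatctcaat

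The 5′ arm of Y4 held a long and a short form with ratios on opposite sides of 1. Reads from base 1 of 31 nt went from 100 to 149 (ratio 1.47), while those of 22 to 24 nt, which stop just past the last base paired in the fold, base 21, went from 89 to 30 (0.333). The ratio of the 31-nt reads was 4.40 times (2.66 to 7.44) that of the 22-nt to 24-nt reads. The printed 31-nt sequence had 90 and 128 reads (1.41, 1.06 to 1.86) and the 23-nt sequence 37 and 20 (0.534, 0.294 to 0.944). Reads from base 1 of 32 to 33 nt went from 37 to 9 (0.240). All reads from base 1 together had 246 and 199 (0.799, 0.660 to 0.967).

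A base variant of the Y4 5′ arm occurred in the control library alone. Reads with C23T, counted from base 1 of the arm with the assembled base first, numbered 22 in the control library, in 4 distinct sequences, and 0 in the knockdown library. Against the floor of 3 reads the level was 7.42-fold lower, with an upper bound of the ratio of 0.1803. Of the reads with C at that base there were 223 and 269. Without the C23T reads the Y4 5′ arm had 253 and 274 reads and a ratio of 1.07 (0.898 to 1.27). The reads from base 1 then had 224 and 199, a ratio of 0.878 (0.721 to 1.07) whose interval includes 1. The short form then had 86 and 30 reads and a ratio of 0.345 (0.220 to 0.528), and the 32-nt to 33-nt form 0.356 (0.146 to 0.788). For the short form this says little, since reads of 22 nt from base 1 end before base 23 and could not be left out. Whether the C23T reads came from an allele, another gene copy or another organism was not tested. Reads that do not cover base 23 cannot be sorted by it.

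Y1 was the 5′ arm with the highest ratio. It had 29 control and 191 knockdown reads. Its ratio of 6.51 (4.39 to 9.98) was 6.60 times (4.27 to 10.5) that of the Y4 5′ arm and 4.94 times (2.93 to 8.47) that of the Y3 5′ arm. The arm's reads were mostly of 30 to 31 nt, 75.9% of them in the control library (56.5 to 89.7) and 73.8% in the knockdown library (67.0 to 79.9). The printed 31-nt sequence had 17 and 64 reads (3.72, 2.15 to 6.77), and reads ending 1 base earlier, at base 30, had 5 and 80 (15.8, lower bound 6.50). The 5′ arms of Y1 and Y4, with 18 of 20 bases in common, thus had different ratios between these libraries.

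The Y3 5′ arm was mainly short in both libraries. It had 70 control and 93 knockdown reads, all starting at base 1, and a ratio of 1.31 (0.952 to 1.82) whose interval includes 1. Reads of 22 to 24 nt were 78.6% of them in the control (67.1 to 87.5) and 81.7% in the knockdown library (72.4 to 89.0). The printed 24-nt sequence had 24 and 31 reads (1.28, 0.725 to 2.27).

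The 3′ arms of Y1 and Y3, as far as they were assembled, held no C run as long as that of Y4. The Y1 arm begins with C at the edge of its read cover, so the bases before it are not known. Their leading sequences are shown for comparison with the Y4 ends above, the TTGACT motif in capitals.
Y1 3′ arm, 27 nt, in the T run: cttctcactactgcacTTGACTagtct
Y1 3′ arm, 23 nt: ttctcactactgcacTTGACTag
Y3 3′ arm, 26 nt, in the T run: ctcccactgcttcacTTGACTagcct
Y3 3′ arm, 22 nt: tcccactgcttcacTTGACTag

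The Y1 3′ arm had 40 reads in the control and 187 in the knockdown library (ratio 4.62, 3.27 to 6.67). Its fragments in the T run went from 27 to 95 reads (3.48, 2.25 to 5.55) and those ending before it from 13 to 92 (6.99, 3.89 to 13.6). The 27-nt sequence had 19 and 45 reads and the 23-nt sequence, which ends 2 bases after the motif, 6 and 30. Both kinds of end were therefore higher in the knockdown library.

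The Y3 3′ arm had 176 and 388 reads, a ratio of 2.18 (1.82 to 2.62), and most of its reads ended in the T run in both libraries. Such ends were 90.9% of the arm in the control library (85.7 to 94.7) and 88.7% in the knockdown library (85.1 to 91.6). Its 26-nt sequence had 54 and 154 reads (2.82, 2.05 to 3.92). The 22-nt sequence, the leading one that stops before the T run, had 0 and 11. Against the floor of 3 reads it was 3.62-fold higher, with a lower bound of the exact interval of 2.479. Ends 2 bases after the motif, which that sequence has, went from 1 to 18 reads (17.8, 2.81 to 741), or from 0.568% to 4.64% of the arm. Some other Y3 forms, not among the named sequences and picked with their values known, had fewer reads in the knockdown library. Their values are a description. The next sequence that stops before the T run, of 24 nt, had 7 and 3 reads (0.423, 0.0706 to 1.85), and a 24-nt sequence that ends in the T run had 11 and 1 (0.0898, 0.00209 to 0.618). All 24-nt reads of the arm together, which include both of these sequences, had 18 and 6 (0.329, 0.107 to 0.866). The 3′ arm ratio of Y4 was 2.62 times (2.15 to 3.18) that of Y3 and 1.24 times (0.849 to 1.76) that of Y1. Among fragments that end in the T run the excess of Y4 over Y3 was 1.43 (1.14 to 1.78), and Y4 against Y1 gave 0.872 (0.539 to 1.37).

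Single sequences were also set against all sequences of the libraries. A minimum of 20 reads over both libraries left 40 of the 320 Y RNA sequences, and 31 were higher in the knockdown library by 2-fold or more and 3 lower. Of all 51968 sequences with that many reads 10.3% were higher by 2-fold or more and 11.8% lower. The median log2 ratio was 2.04 for the 40 and -0.04 for all. The 3′ arm of Y4 gave 21 of the 31, out of its 22 sequences, and its 5′ arm gave the 3 that were lower, out of 5. All 6 Y1 sequences, 3 of 4 of the Y3 3′ arm and 1 of 3 of the Y3 5′ arm were higher. A sequence can pass that minimum through its knockdown reads alone, so the count was repeated over sequences with at least 10 control reads. There 10 of 21 Y RNA sequences were higher and 5 lower, beside 3.98% and 21.1% of 54239 sequences.

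Reads with 1 mismatch were 99 in the control and 196 in the knockdown library, 6.53% and 3.02% of the Y RNA reads. The mismatch was at the last base in 55 and 79 of them. An A in place of a T at the end of a 3′ arm fragment accounted for 14 and 36 reads. Exact matches alone had 1418 and 6289 reads and a ratio of 4.38 (4.14 to 4.64).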

How the data were processed

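Small RNA of pig oocytes was sequenced in 1 control and 1 Dicer knockdown library by adapter ligation, reverse transcription and PCR with Illumina sequencing, as given per the labels' protocols. Each distinct sequence was deposited by the authors with its length and its raw count of reads. The submitters' processing notes name Bowtie2. Which version, genome build or trimming was used is not given in the sources used here. Members and lists were chosen with earlier results of these data known.

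No Y RNA reference or genome was used. Each arm was seeded by a pair of short motifs known from vertebrate Y RNAs and picked after the reads had been looked at: TGGTCC, any base, then AAGGTAGT (Y1), AGTGCAGT (Y3), ATGGTAGT (Y4) or AGTGTTGT (Y5), and TACTGCAC, TGCTTCAC, TGCTAAAT or AACCGCGC followed by TTGACT. Reads of at most 40 nt that hold a pair were stacked, and the base with most reads was taken wherever at least 3 reads stood behind it. Longer reads were kept out, since with them the Y4 3′ arm ran on into adapter. Of these, 9 sequences with 12 reads held a pair and 0 were counted as members. 3′ arms were closed after their last TT, with 4 T added for matching, so the exact last base of each RNA is not known. Loops are counted only as far as the assembled arms reach.

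A fragment has the 3′ end when it ends in the T run, the 5′ end when it starts within 2 nt of base 1, and is otherwise internal. The limit of 40 nt, the cover of 3 reads and this reading of the 3′ end were set after the data had been seen. RPM is relative to all reads of a library. Ratios have exact conditional binomial intervals, quotients of ratios conditional odds-ratio intervals and shares Clopper-Pearson intervals. A count of 0 was set to 3 reads, and log2 medians used 0.5 added reads. The assembly, match and intervals were tested on simulated reads.

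Named sequences were the most abundant of each Y RNA and end class, the 5 most abundant in all, and the 3 with the highest and the 3 with the lowest ratio among those with at least 50 reads. The 3 lowest included ratios above 1, and a sequence that tied for the last of the 3 highest was not printed. The alternatives tried changed the denominator, mismatches, length, read minimums, distinct sequences, the most abundant sequence and the end classes. Sequences of reads with a mismatch are not printed. Pairing between arms was predicted with RNAcofold of ViennaRNA 2.7.2. Other steps ran in scipy 1.17.1, pandas 2.3.3 and numpy 2.4.6 under Python 3.11.15.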

Additional observations from a re-analysis of the deposited data

How the results depend on the processing

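Every ratio of Y RNA reads, of Y1, Y3 and Y4 and of the end classes stayed above 1 under the alternatives run, and 0 reversed. No alternative left out a Y RNA. By Y RNA the 5′ end ratio was 6.37 in Y1 (4.29 to 9.77), 1.31 in Y3 (0.952 to 1.82) and 0.835 in Y4 (0.691 to 1.01). Relative to reads not starting with T, the ratio was 3.836 for all Y RNA, 4.2 for Y4, 2.567 for 3′ end and 7.122 for internal fragments. Counting distinct sequences instead of reads, it was 1.98 for all Y RNA, 2.742 for Y1, 1.6 for Y3, 1.98 for Y4, 1.2 for 5′ end, 1.755 for 3′ end and 3.021 for internal fragments. Without the most abundant sequence it was 3.828 for all Y RNA and 4.187 for Y4. With the 3′ end taken as the last 5 assembled bases, an alternative added after seeing the data, the 3′ end ratio was 3.303. Among all sequences, 5.71% were higher and 5.68% lower by 2-fold with at least 100 reads, 4.38% and 4.67% by 3-fold with at least 20 reads, and, also added after seeing the data, 3.98% and 21.1% by 2-fold with at least 10 control reads.

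With 1 library per group leaving out a replicate was not possible, and no interval covers the spread between oocyte batches or library preparations. No paired analysis was possible because each group has 1 library. Y1, with 69 control reads, has the widest intervals of the 3 Y RNAs found. Y5 has no ratio, and motifs of Y5 that differ in pig are missed. Reads of Y RNA loops beyond the assembled arms were not analysed here.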
